A study of Homo sapiens with 12 samples.

Results

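The 10 nuclear genes described here serve the transcription and copying of human mitochondrial DNA (mtDNA), or act close to these steps. They were PPRC1, POLRMT, TFAM, TFB2M, TFB1M, POLG, POLG2, TWNK, SSBP1 and MGME1. They were chosen by symbol, matched to the Ensembl identifiers in the count tables, and all 10 of the 10 were found among the 61906 genes of each table. All 10 passed the filter on low counts in both experiments, with 308 to 4006 reads per library.

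The cells were MOLM-14, a line grown from human acute myeloid leukemia, whose known lesions include a rearranged KMT2A gene and a FLT3 internal tandem duplication. In the knockdown experiment, 3 libraries came from cells given a lentiviral control shRNA (shControl) and 3 from cells given an shRNA against the RNA helicase DDX5 (shDDX5), all taken 96 h after infection. In the compound experiment, 3 libraries came from cells in 0.1% DMSO and 3 from cells given the small molecule RX-5902 at 100 nM, a compound aimed at phosphorylated DDX5, all taken at 6 h. The labels name 1 DDX5 shRNA and no rescue, they call the libraries of a group biological replicates, and the p-values measure the spread between these. Agent, infection and time all differ between the experiments.

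Human mtDNA is a small circle packed into nucleoids, mainly by TFAM. It encodes 13 proteins of the respiratory chain, 2 ribosomal RNAs and a set of transfer RNAs, and everything else that the organelle needs to express and copy it is imported from the cytosol. POLRMT, the mitochondrial RNA polymerase, starts at the promoters with TFAM, which bends the DNA, and TFB2M, which helps to melt it. TFB1M, a relative of TFB2M, methylates the small ribosomal RNA. In replication the TWNK helicase unwinds the circle, SSBP1 coats the single strand, the catalytic subunit POLG with its processivity subunit POLG2 copies it, and the nuclease MGME1 trims the ends. PPRC1 is a coactivator of the PGC-1 family that works with the factor NRF1 on genes of this kind.

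Total counts were 17603589 to 19674098 per library in the knockdown experiment and 20264250 to 20367575 in the compound experiment. Levels are CPM (read counts scaled to a common library size) after TMM normalisation, computed separately in each experiment, so levels are set side by side within an experiment. Among replicate pairs, the chi-square per gene was 1.76 to 6.62, apart from shDDX5 replicate 1, for which it was 52.5 and 52.7 against the other two shDDX5 libraries. That library therefore stood apart, and the results that it moved most are given with and without it. All 12 of the 12 myelomonocytic markers were detected. The summed level of the 12 markers was 4538 to 4883 CPM in shControl, 13735 to 15086 in shDDX5, 1750 to 1770 in DMSO and 1802 to 1840 in RX-5902. In the knockdown this followed LYZ, at 3203 to 3581 CPM in shControl and 12364 to 13761 CPM in shDDX5. The other 11 summed to 1303 to 1351 CPM and 1325 to 1371 CPM. Lower in shDDX5 on average were PTPRC (230 and 127 CPM), FLT3 (382 and 269), HOXA9 (31.1 and 10.1) and MEIS1 (20.02 and 3.01). Higher were ITGAM (42.1 and 101), CD33 (63.4 and 119), MPO (39.0 and 70.9), CSF1R (65.6 and 104.5), SPI1 (132 and 170), CEBPA (252 and 288) and CD4 (72.47 and 79.65).

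Of the markers of other cell types, the B cell gene MS4A1, the red cell genes HBB and HBA1 and the fibroblast genes COL3A1 and LUM were at 0 in every library. The 7 T and NK cell genes, mainly NKG7 and TRAC, summed to 92.1 to 99.3 CPM in shControl, 125 to 185 in shDDX5, 35.8 to 38.2 in DMSO and 74.2 to 79.3 in RX-5902. The 5 epithelial and packaging cell genes summed to 9.96 to 11.2, 6.90 to 8.75, 4.21 to 4.90 and 18.0 to 20.4 CPM in the same order, with L1CAM at 18.5 CPM in RX-5902. The 5 fibroblast genes summed to 1.53 to 2.07, 4.43 to 7.19, 0.404 to 0.602 and 0.959 to 1.40 CPM, the 4 B cell genes to at most 2.11 CPM and the 5 red cell genes to at most 0.197 CPM. The part of these markers in the changes given below was not tested.

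DDX5 itself stood at 755, 718 and 730 CPM in shControl and at 159, 164 and 161 CPM in shDDX5. The shDDX5 libraries were all lower, 4.55-fold on average (log2 fold change -2.19, SE 0.08, adjusted p = 3.44e-06 by edgeR's quasi-likelihood test with Benjamini-Hochberg adjustment over all genes tested, as for all adjusted p-values here). In the compound experiment DDX5 stood at 854, 868 and 863 CPM in DMSO and at 1108, 1067 and 1023 CPM in RX-5902, a rise of 0.31 on the log2 scale (SE 0.04, adjusted p = 1.47e-08).

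Promoters of this gene family are known for sites of NRF1 and of GABPA, a factor of the ETS family. In the RefSeq promoter table (GRCh38.p14), 9 of the 10 genes had an entry, and TWNK had none. Some RefSeq starts, that of TFAM among them, lie inside the gene coordinates given below, and SSBP1 had several starts, each with its own window. The 250 bases before the start were searched on both strands for GCGCANGCG (NRF1), CCGGAAG (ETS and GABPA), GGGCGG (SP1) and CACGTG (E-box). The NRF1 letters were found in 5 genes, TFAM, TFB2M, TFB1M, POLG2 and POLRMT, and in 6.56% of all promoters of that length or 11.3% of those of genes tested here. The stretches that hold them are shown because these 5 genes did not move alike in the knockdown, as given below. They read 5′ to 3′ on the gene's strand, with the letters of the NRF1 and ETS matches in capitals. The matches on both strands overlap in TFB1M and POLRMT, and POLRMT holds a further overlapping match.
TFAM, chr10:58385333-58385371, plus strand: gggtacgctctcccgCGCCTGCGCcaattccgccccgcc
TFB2M, chr1:246566262-246566292, minus strand: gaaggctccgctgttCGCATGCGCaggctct
TFB1M, chr6:155314548-155314631, minus strand: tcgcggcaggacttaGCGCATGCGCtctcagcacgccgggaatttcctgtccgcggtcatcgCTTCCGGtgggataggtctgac
POLG2, chr17:64497055-64497128, minus strand: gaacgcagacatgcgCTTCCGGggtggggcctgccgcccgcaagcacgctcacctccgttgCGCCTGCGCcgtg
POLRMT, chr19:633538-633645, minus strand: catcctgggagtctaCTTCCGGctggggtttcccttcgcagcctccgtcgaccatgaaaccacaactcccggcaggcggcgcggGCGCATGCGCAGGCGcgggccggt

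The ETS letters were found in 4 genes, TFB1M, POLG2, POLRMT and SSBP1, and in 8.52% of all promoters or 14.2% of those of tested genes. In SSBP1 they were in 1 of its windows only (141738357 to 141738606), which lies past the first exon base of the gene. The SP1 letters were found in 7 genes and in 42.6% of all promoters or 61.8% of those of tested genes. No window of the 9 genes held the E-box letters, which 6.34% of all promoters and 8.34% of those of tested genes hold. A match is a description of letters in this window and does not show that a factor binds there.

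Levels can be compared between genes only per length, here as RPKM (CPM divided by exon length in kilobases). In shControl, TFB2M was the highest of the 10 at 46.9 ± 0.43 RPKM (SD, n = 3), followed by TFAM at 32.2 ± 1.43, and TFB1M was the lowest at 6.60 ± 0.23. TWNK (27.5 ± 1.15) and POLRMT (26.9 ± 1.15) lay next to each other within their spread. Both subunits of the polymerase stood close, POLG2 at 11.4 ± 0.23 and POLG at 10.8 ± 0.73 RPKM. The order was not kept in the treated cells. TFAM stood at 13.1 ± 0.89 RPKM in shDDX5, behind POLG2 at 14.9 ± 0.77. In RX-5902 MGME1, at 22.2 ± 1.15 RPKM, lay above TFAM at 20.5 ± 0.79 and TWNK at 14.8 ± 1.48, whereas in DMSO TWNK was at 38.1 ± 0.62, TFAM at 34.0 ± 3.56 and MGME1 at 17.9 ± 0.40.

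**Figure D1:**
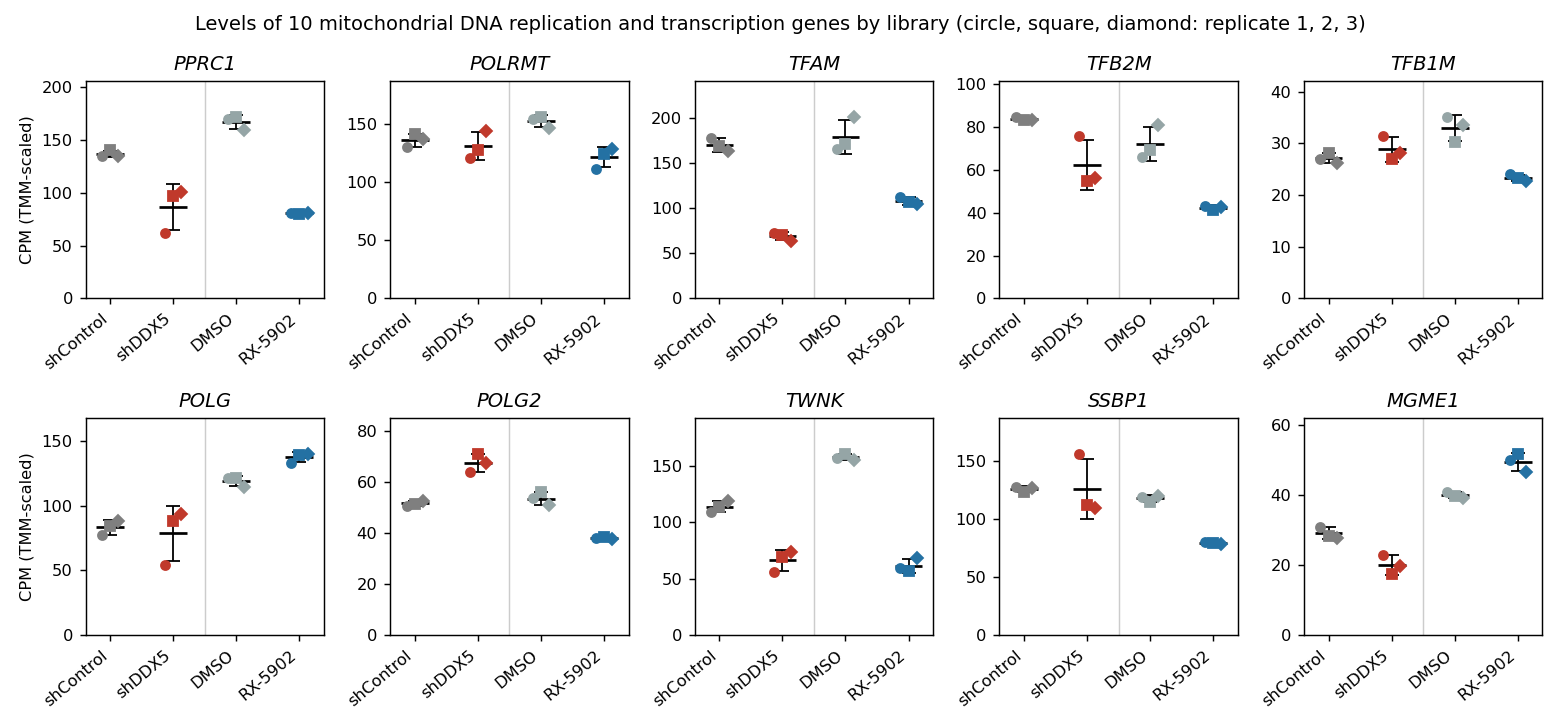
Level of each of the 10 genes in every library, in TMM-scaled CPM on axes that start at 0, with 1 symbol per replicate and horizontal lines with error bars for the mean and SD of each group (n = 3). TFAM lay at 63.7 to 72.7 CPM in shDDX5 against 163 to 178 in shControl, and TWNK at 56.5 to 68.2 CPM in RX-5902 against 155 to 161 in DMSO.

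The first comparison asked how these genes changed after DDX5 knockdown. Of the 10 genes, 5 fell (TFAM, TWNK, PPRC1, MGME1 and TFB2M), 1 rose (POLG2) and 4 were not called (POLRMT, TFB1M, POLG and SSBP1), at an adjusted p under 0.05. Among all 14463 genes tested, 28.3% fell, 28.4% rose and 56.7% were called either way. The median log2 fold change of the 10 was -0.25, against -0.00071 over all genes tested. In bulk RNA, fewer cells of a type and less RNA per cell cannot be told apart, and this applies to each change given here. The summed level of 18 genes of S phase and mitosis moved with the shDDX5 group, from 3319 to 3400 CPM in shControl to 854 to 945 CPM in shDDX5, as did LYZ among the myelomonocytic markers. Their part in these changes was not tested.

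The second comparison asked the same of RX-5902 at 6 h. Of the 10 genes, 8 fell and 2 rose (POLG and MGME1). Among all 13941 genes tested, 31.9% fell, 32.2% rose and 64.1% were called either way. The median log2 fold change of the 10 was -0.53, against 0.01 over all genes tested. The sum of the 10 genes was 1083 to 1101 CPM in DMSO and 733 to 751 CPM in RX-5902, against 950 to 963 CPM in shControl and 716 to 758 CPM in shDDX5. The S phase and mitosis genes summed to 5476 to 5534 CPM in DMSO and 6060 to 6387 CPM in RX-5902. This followed MKI67, at 1064 CPM in DMSO and 2016 CPM in RX-5902 on average, a larger rise than that of the sum. Of the 18 genes, 9 fell and 7 rose.

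The third comparison set the log2 change after knockdown against that after RX-5902, gene by gene, in 1 model of all 12 libraries. The 2 changes differed for 6 of the 10 genes, while 52.7% of all 15386 genes tested differed (24.1% with the higher change in the knockdown and 28.6% with the lower). TFB1M, POLG2, TWNK and SSBP1 had the higher change in the knockdown and TFAM and MGME1 the higher change in RX-5902. Since agent, infection and time differ at once between the experiments, which of them goes with the difference cannot be told apart.

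**Figure D2:**
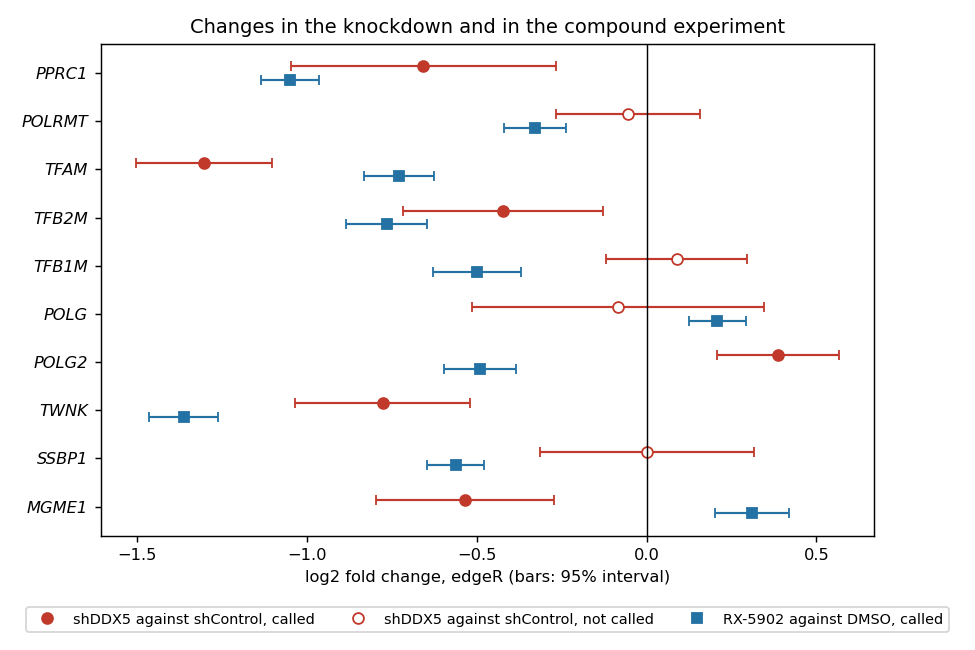
Log2 fold change of each of the 10 genes in shDDX5 against shControl and in RX-5902 against DMSO, with 95% intervals from edgeR and filled symbols where the adjusted p was under 0.05. TFAM lay lower in the knockdown (-1.30) than with RX-5902 (-0.73), TWNK lay lower with RX-5902 (-1.36) than in the knockdown (-0.78), and POLG2 and MGME1 had opposite signs.

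The coactivator PPRC1 (chromosome 10, 102132994 to 102150333, plus strand) was at 135, 140 and 135 CPM in shControl and at 61.9, 96.6 and 101 CPM in shDDX5. All 3 shDDX5 libraries were lower, with replicate 1 well under the other two. The fall was 0.66 on the log2 scale (log2 fold change -0.66, SE 0.17, adjusted p = 0.0107), and -0.47 without shDDX5 replicate 1 (adjusted p = 5.89e-10). With RX-5902 it went from 170, 171 and 159 CPM in DMSO to 80.5, 80.2 and 80.9 CPM, a 2.07-fold fall (log2 fold change -1.05, SE 0.04, adjusted p = 1.03e-20). The RX-5902 libraries lay close together and far below DMSO. The difference between the 2 changes missed the threshold (0.37, adjusted p = 0.0901, 95% interval -0.00 to 0.75), but was called without shDDX5 replicate 1 (0.57, adjusted p = 5.15e-10).

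POLRMT, the polymerase (chromosome 19, 617221 to 633537, minus strand), was at 130, 141 and 137 CPM in shControl and at 121, 127 and 144 CPM in shDDX5. The groups overlapped and no change was called (log2 fold change -0.06, adjusted p = 0.637, 95% interval -0.27 to 0.16). In the compound experiment it was at 155, 156 and 147 CPM in DMSO and at 112, 124 and 128 CPM in RX-5902. All RX-5902 libraries were lower (log2 fold change -0.33, SE 0.05, adjusted p = 1.12e-07). The difference between the changes was 0.25 (adjusted p = 0.0592), and 0.32 without shDDX5 replicate 1 (adjusted p = 0.000305).

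TFAM, which both packages mtDNA and starts its transcription (chromosome 10, 58385345 to 58399220, plus strand), was at 178, 169 and 163 CPM in shControl and at 72.7, 70.5 and 63.7 CPM in shDDX5. Every shDDX5 library was under every shControl library by far more than the spread within either group. It fell 2.47-fold (log2 fold change -1.30, SE 0.09, adjusted p = 1.26e-05). Leaving out shDDX5 replicate 1 gave -1.35.

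With RX-5902, TFAM went from 166, 171 and 201 CPM in DMSO to 113, 107 and 105 CPM. The groups did not overlap, and DMSO replicate 3 was the highest of the 6. The fall was 1.66-fold (log2 fold change -0.73, SE 0.05, adjusted p = 2.51e-14). TFAM fell further in the knockdown than with RX-5902 (difference -0.59, SE 0.12, adjusted p = 0.000638).

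TFB2M, the partner of TFAM at the promoter (chromosome 1, 246540561 to 246566261, minus strand), was at 84.5, 83.1 and 83.4 CPM in shControl and at 75.9, 55.0 and 56.3 CPM in shDDX5. All shDDX5 libraries were lower, and replicate 1 lay nearer to the controls than to its group. The fall (log2 fold change -0.42, SE 0.13, adjusted p = 0.0213) was not called when any 1 of the shControl libraries or shDDX5 replicate 2 or 3 was left out (adjusted p = 0.0623 to 0.0800). Without shDDX5 replicate 1 it was -0.59 (adjusted p = 2.06e-11). With RX-5902 TFB2M went from 65.9, 69.1 and 81.0 CPM in DMSO to 43.3, 41.3 and 42.6 CPM. It fell by 0.76 on the log2 scale (log2 fold change -0.76, SE 0.06, adjusted p = 2.44e-13), with no overlap between the groups. The difference between the changes was not called (0.33, adjusted p = 0.105), but was without shDDX5 replicate 2 (0.44, adjusted p = 0.0295) and without shDDX5 replicate 3 (0.42, adjusted p = 0.0420).

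TFB1M, the ribosomal RNA methyltransferase (chromosome 6, 155256134 to 155314493, minus strand), was at 27.1, 28.1 and 26.2 CPM in shControl and at 31.5, 26.9 and 28.1 CPM in shDDX5. The groups overlapped and no change was called (log2 fold change 0.09, adjusted p = 0.429, 95% interval -0.12 to 0.30). With RX-5902 it went from 35.1, 30.3 and 33.6 CPM in DMSO to 24.0, 23.2 and 22.8 CPM. All RX-5902 libraries were lower (log2 fold change -0.50, SE 0.06, adjusted p = 2.71e-08), and the 2 changes differed by 0.57 (adjusted p = 0.000870). TFB1M is an uncertain measurement, since 30.8% of its exon bases overlap TIAM2 on the opposite strand and 14.4% overlap ENSG00000235381 on the same strand. TIAM2 was at 2.51 to 5.27 CPM over the knockdown libraries.

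POLG, the catalytic subunit of the mtDNA polymerase (chromosome 15, 89305198 to 89334861, minus strand), was at 77.1, 84.7 and 88.1 CPM in shControl and at 54.1, 87.8 and 93.7 CPM in shDDX5. shDDX5 replicate 1 was the lowest of the 6 and the other two lay at the controls or above, so the groups overlapped. The log2 fold change was -0.08 (adjusted p = 0.723, 95% interval -0.52 to 0.35), and 0.12 without shDDX5 replicate 1 (adjusted p = 0.0505). With RX-5902 POLG went from 121, 121 and 114 CPM in DMSO to 133, 139 and 139.9 CPM. It rose by 0.21 on the log2 scale (SE 0.04, adjusted p = 4.37e-05), but was not called in the fit of all 12 libraries (0.24, adjusted p = 0.164). Its exons overlap FANCI on the opposite strand over 458 bases, 5.95% of its length. FANCI, a DNA repair gene, fell in the knockdown (log2 fold change -2.22, adjusted p = 1.89e-05) and was at 0.11 with RX-5902 (adjusted p = 0.0158), a call that was lost without DMSO replicate 2, RX-5902 replicate 1 or RX-5902 replicate 2, with DESeq2 (adjusted p = 0.0657), with no filter (adjusted p = 0.0828) and in the fit of all 12 libraries (adjusted p = 0.298).

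POLG2, the accessory subunit (chromosome 17, 64477785 to 64497054, minus strand), was at 50.7, 51.6 and 52.7 CPM in shControl and at 64.1, 71.1 and 67.5 CPM in shDDX5. Every shDDX5 library was higher, and POLG2 was the 1 gene of the 10 that rose in the knockdown (log2 fold change 0.39, SE 0.08, adjusted p = 0.00340). With RX-5902 it went from 53.8, 56.0 and 51.0 CPM in DMSO to 38.3, 38.4 and 37.7 CPM. Here every treated library was lower (log2 fold change -0.49, SE 0.05, adjusted p = 6.10e-10). The 2 changes differed by 0.86 (SE 0.09, adjusted p = 1.48e-06). POLG2 lies 1199 bases from DDX5 (64498254 to 64508199) on the same strand of chromosome 17, and in each experiment it moved in the direction opposite to DDX5. Whether the position has a part in this was not tested.

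TWNK, the replicative helicase (chromosome 10, 100987367 to 100994403, plus strand), was at 109, 114 and 118 CPM in shControl and at 56.1, 68.9 and 74.0 CPM in shDDX5. All shDDX5 libraries were lower, by 1.71-fold (log2 fold change -0.78, SE 0.11, adjusted p = 0.000568). With RX-5902 it went from 157, 161 and 155 CPM in DMSO to 59.3, 56.5 and 68.2 CPM. This was the largest fall among the 10 genes in that experiment, 2.57-fold (log2 fold change -1.36, SE 0.05, adjusted p = 1.00e-21). TWNK fell less in the knockdown than with RX-5902 (difference 0.57, SE 0.13, adjusted p = 0.00199).

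TWNK shares 149 exon bases, 3.60% of its length, with MRPL43 on the opposite strand, and the strand setting of the counting was not given in the sources used here. MRPL43, a protein of the mitochondrial ribosome, rose in the knockdown (log2 fold change 0.61, adjusted p = 0.00888), opposite to TWNK, though it was not called without shControl replicate 1 and was at 0.41 without shDDX5 replicate 1. With RX-5902 it fell by less than TWNK did (log2 fold change -0.34, adjusted p = 1.16e-06), and was not called in the fit of all 12 libraries (adjusted p = 0.0670).

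SSBP1, the single-strand binding protein (chromosome 7, 141738334 to 141787922, plus strand), was at 127, 123 and 127 CPM in shControl and at 156, 112 and 109.7 CPM in shDDX5. shDDX5 replicate 1 lay above all controls and the other two below them. The log2 fold change was 0.00 (SE 0.14, adjusted p = 0.991, 95% interval -0.31 to 0.32), whereas without shDDX5 replicate 1 SSBP1 fell (-0.18, adjusted p = 0.00111). With RX-5902 it went from 119, 114 and 119 CPM in DMSO to 80.5, 79.6 and 78.7 CPM. The fall was uniform over the libraries (log2 fold change -0.56, SE 0.04, adjusted p = 1.11e-13), and the 2 changes differed by 0.55 (adjusted p = 0.00923), or by 0.37 without shDDX5 replicate 1 (adjusted p = 1.78e-06).

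MGME1, the nuclease that trims replication ends (chromosome 20, 17969018 to 17991122, plus strand), was at 31.0, 28.3 and 27.7 CPM in shControl and at 22.9, 17.4 and 19.7 CPM in shDDX5. All shDDX5 libraries were lower (log2 fold change -0.54, SE 0.11, adjusted p = 0.00426). With RX-5902 it went the other way, from 40.9, 39.6 and 39.2 CPM in DMSO to 50.0, 51.7 and 46.6 CPM. Every RX-5902 library was higher (log2 fold change 0.31, SE 0.05, adjusted p = 5.86e-06). The 2 changes differed by -0.86 (SE 0.13, adjusted p = 7.59e-05).

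Of the 5 genes whose promoters hold the NRF1 letters, TFAM and TFB2M fell in the knockdown, POLG2 rose, and TFB1M and POLRMT were not called. Over all genes tested, 28.3% fell and 28.4% rose in the knockdown. With RX-5902 all 5 fell, by log2 fold changes of -0.33 (POLRMT) to -0.76 (TFB2M). In that experiment 8 of the 10 genes fell, as did 31.9% of all genes tested, while 32.2% rose. TWNK, which had no promoter entry, fell furthest of the 10 (-1.36). Of the 4 genes with an entry and without these letters, PPRC1 (-1.05) and SSBP1 (-0.56) fell with RX-5902, and POLG (0.21) and MGME1 (0.31) rose. The windows with and without these letters were not compared by a test.

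shDDX5 replicate 1 departed from the other two shDDX5 libraries by different amounts in different genes. It lay below their mean for POLG (-0.74 on the log2 scale), PPRC1 (-0.67) and TWNK (-0.35), and above it for SSBP1 (0.49), TFB2M (0.45) and MGME1 (0.30). For TFAM (0.12) and POLG2 (-0.11) the gap was small. Without this library 7 of the 10 genes were called, SSBP1 being the gene added, and TFAM, TWNK, PPRC1, MGME1, TFB2M and POLG2 stayed called. Over all genes tested 71.4% were called without it, so the count of 7 in 10 lies at that background.

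**Figure D3:**
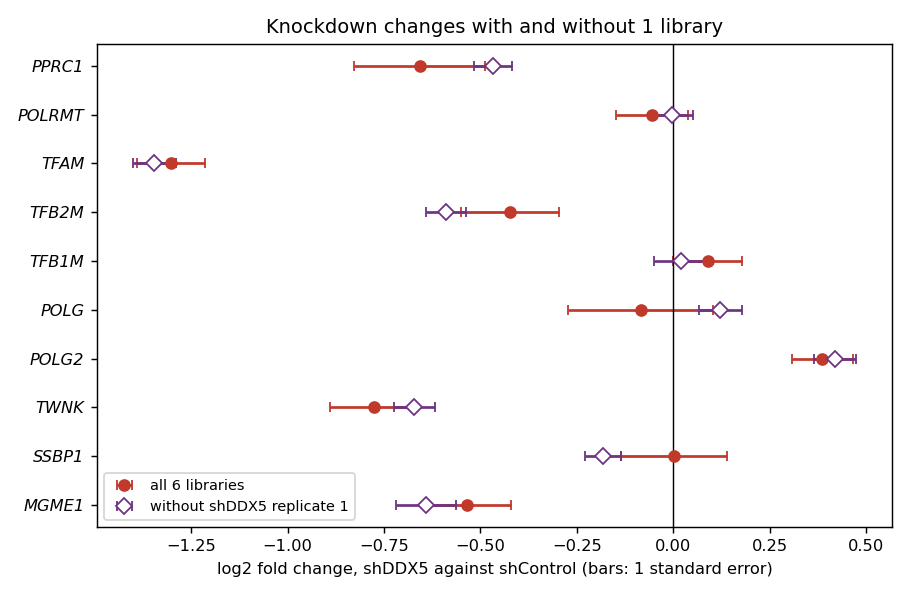
Log2 fold change of the 10 genes in shDDX5 against shControl with all 6 libraries (filled) and without shDDX5 replicate 1 (open), with bars of 1 standard error. POLG and SSBP1 changed sign, from -0.08 to 0.12 and from 0.00 to -0.18, and TFAM moved little, from -1.30 to -1.35.

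The transcripts made from mtDNA were set beside these genes. The 13 mtDNA-encoded protein genes summed to 65373, 55741 and 51184 CPM in shControl and to 99147, 67350 and 64511 CPM in shDDX5. shDDX5 replicate 1 was far above all other libraries, and the other two shDDX5 libraries lay on either side of the highest control. The sum was 1.32-fold higher in shDDX5 (log2 difference 0.40), which did not pass an exact two-sided permutation test (p = 0.2, where the smallest p that 3 against 3 allows is 0.1), and the difference was 0.21 without shDDX5 replicate 1. In the compound experiment the sum was 58570, 58174 and 55294 CPM in DMSO and 50633, 44196 and 52381 CPM in RX-5902. The RX-5902 libraries were all lower, 1.17-fold on average (log2 difference -0.23, exact permutation p = 0.1, the smallest possible). The difference between the 2 changes of the sum was 0.63 (exact permutation test within experiments, two-sided, p = 0.01). That test relabels treated and control libraries in each experiment, so its p-value is for no change of the sum in either. It cannot tell whether the 2 changes differ.

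Gene by gene, 5 of the 13 rose in the knockdown and 0 fell, with a median log2 fold change of 0.42, or 0.17 without shDDX5 replicate 1. They were MT-CYB (0.94), MT-ND1 (0.86), MT-ND3 (0.69), MT-ND2 (0.66) and MT-ND4 (0.59). Without that library the same genes were at 0.73, 0.49, 0.42, 0.33 and 0.33. The 38.5% of the 13 called in the knockdown lies below the 56.7% of all genes tested. The count of 5 rests on single libraries. It was 7 without shDDX5 replicate 1, where 71.4% of all genes were called. It was 1 without shControl replicate 2 or without shControl replicate 3, where 45.2% and 44.9% of all genes were called. In the fit of all 12 libraries it was 8, where 62.9% of all genes were called. With RX-5902, 12 of the 13 fell (92.3% called, against 64.1% of all genes), from -0.12 (MT-ND5) to -0.59 (MT-ATP8). Among these, the RX-5902 and DMSO libraries overlapped for MT-ND1, MT-ND2, MT-ND3, MT-ND5 and MT-ND6. DESeq2 called 8 of the 13 and scaling by library totals 9, where 40.8% and 65.1% of all genes were called. MT-CYB was not called (0.04, adjusted p = 0.610). However, the fit of all 12 libraries called 1 of the 13, and 44.3% of all genes. MT-RNR2, the large ribosomal RNA, rose in both experiments (0.56, adjusted p = 0.00458, in the knockdown and 0.39, adjusted p = 9.59e-11, with RX-5902). MT-RNR1, which TFB1M methylates, rose in the knockdown (0.36, adjusted p = 0.00919) and was not called with RX-5902 (0.03, adjusted p = 0.475). Without shControl replicate 2 or without shControl replicate 3, 1 of the 2 ribosomal RNAs was called in the knockdown. Genes of mtDNA have near-identical copies in the nuclear genome, and how reads shared with these were counted was not given in the sources used here.

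**Figure D4:**
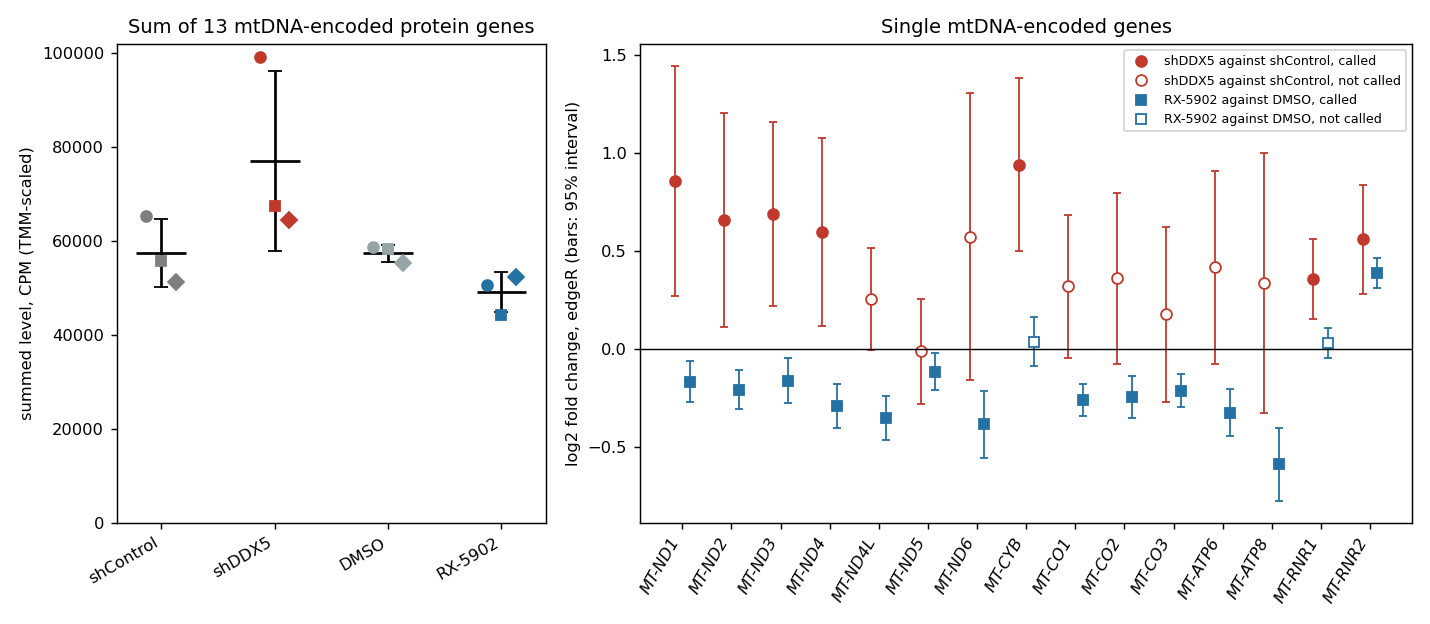
Left, summed level of the 13 mtDNA-encoded protein genes in every library, in TMM-scaled CPM, with horizontal lines and error bars for the group mean and SD (n = 3). Right, log2 fold change of each mtDNA gene in both experiments with 95% intervals and filled symbols where called. shDDX5 replicate 1 is the highest library, and the RX-5902 changes of the protein genes lie at or below 0 except for MT-CYB (0.04).

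Reads of the mtDNA protein genes were also counted per read of single members. There were 313 to 367 mtDNA protein-gene reads per TFAM read in shControl and 955 to 1364 in shDDX5, a 3.27-fold higher ratio. With RX-5902 the ratio was 1.41-fold higher, from 275 to 353 reads in DMSO to 414 to 499 reads. For POLRMT there were 375 to 504 reads in shControl and 821, 529 and 447 in shDDX5, so that the groups overlapped and replicate 1 was the highest. With RX-5902 the ratio was lower than in DMSO for the 2 genes that rose, 1.35-fold for POLG and 1.45-fold for MGME1. These ratios are descriptions of read counts and carry no test.

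Other genes of the same pathways were read from lists chosen with earlier results of these data known. Their counts are to be read against all genes tested, of which 28.3% fell and 28.4% rose in the knockdown and 31.9% fell and 32.2% rose with RX-5902. Of 15 further genes of mtDNA replication, repair and the nucleoid, 10 fell and 3 rose in the knockdown, and 11 fell and 0 rose with RX-5902. That is 86.7% and 73.3% called, against 56.7% and 64.1% of all genes. In the knockdown FEN1 (log2 fold change -1.55), a flap endonuclease, DNA2 (-1.54), a helicase and nuclease, and UNG (-1.41), which removes uracil from DNA, fell with the smallest p-values of the list. With RX-5902 UNG fell from 59.0 to 11.4 CPM on average (-2.37), ahead of LIG3 (-0.84), the ligase of mitochondria, and RNASEH1 (-0.80), which removes RNA from hybrids with DNA. Several genes of this list, FEN1, DNA2 and UNG among them, also serve the nucleus. The mtDNA topoisomerase TOP1MT rose in the knockdown (0.32, adjusted p = 0.00686) and fell with RX-5902 (-0.41, adjusted p = 4.30e-11).

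Of 16 tested genes of nucleotide supply, 8 fell and 4 rose in the knockdown, and 9 fell and 3 rose with RX-5902, so that 75.0% were called in each, against 56.7% and 64.1% of all genes. RRM1 (-2.28) and RRM2 (-2.18), subunits of ribonucleotide reductase, fell in the knockdown, while TYMP (2.30), which degrades thymidine, rose. RRM2B, a reductase subunit that also serves resting cells, rose in both experiments (1.02 in the knockdown and 0.31 with RX-5902). With RX-5902 the carrier SLC25A4 (-0.88) and NME4 (-0.71), a nucleoside diphosphate kinase, were among those that fell. TK2, the thymidine kinase of mitochondria, fell in the knockdown (-0.48) and rose with RX-5902 (0.52).

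Of 6 genes of transcription elongation and termination, 3 fell and 1 rose in the knockdown, and 4 fell with RX-5902. The 66.7% called in each lies near the 56.7% and 64.1% of all genes. MTERF4 (-0.65) and MTERF3 (-0.65) fell and MTERF1 (0.38) rose in the knockdown, the last not called without shControl replicate 1 or without shControl replicate 2. With RX-5902 MRPL12 (-0.88), MTERF3 (-0.76) and MTERF2 (-0.68) fell. Of 21 genes of mitochondrial RNA processing and stability, 18 fell and 0 rose with RX-5902 (85.7% called, against 64.1% of all genes), among them SUPV3L1 (-0.79), TBRG4 (-0.78) and ELAC2 (-0.64). In the knockdown 6 of these fell and 2 rose, 38.1% called and so below the 56.7% of all genes. Without shDDX5 replicate 1, 12 fell and 3 rose, and 71.4% of all genes were called. In the full set ELAC2 (-0.61), PNPT1 (-0.40) and TRNT1 (-0.39) were among those that fell.

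Of 11 tested nuclear regulators of mitochondrial genes, 8 fell and 1 rose in the knockdown, and 7 fell and 1 rose with RX-5902. That is 81.8% and 72.7% called, against 56.7% and 64.1% of all genes. For RX-5902 the fit of all 12 libraries called 4 of the 11, and 44.3% of all genes. MYC fell in both, from 426 ± 20.5 to 196 ± 7.61 CPM in the knockdown (SD, n = 3, log2 fold change -1.12, adjusted p = 1.89e-05) and from 616 ± 27.7 to 152 ± 6.39 CPM with RX-5902 (-2.02, adjusted p = 8.73e-28). GABPB2 (-1.13) fell and ESRRA (0.63) rose in the knockdown. NRF1 itself fell in the knockdown (-0.43, adjusted p = 0.00269) and was not called with RX-5902 (0.05, adjusted p = 0.518). PPARGC1B (-1.02), a relative of PPRC1, and GABPB1 (-0.37) fell with RX-5902. The part of these regulators in the changes of the 10 genes was not tested.

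All 18 genes of S phase and mitosis fell in the knockdown, with a median log2 fold change of -1.93, among them MCM3 (-2.22), MCM6 (-2.15) and MCM7 (-2.13) of the nuclear replicative helicase. With RX-5902, 9 fell and 7 rose (median -0.14). Those that fell act in S phase, GINS2 (-1.12), MCM2 (-0.81), the other MCM genes of the list, CDC6 and E2F1, and those that rose are MKI67 (0.92), TOP2A, CCNB1, CDK1, BUB1, AURKA and PLK1, known for G2 and mitosis.

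**Figure D5:**
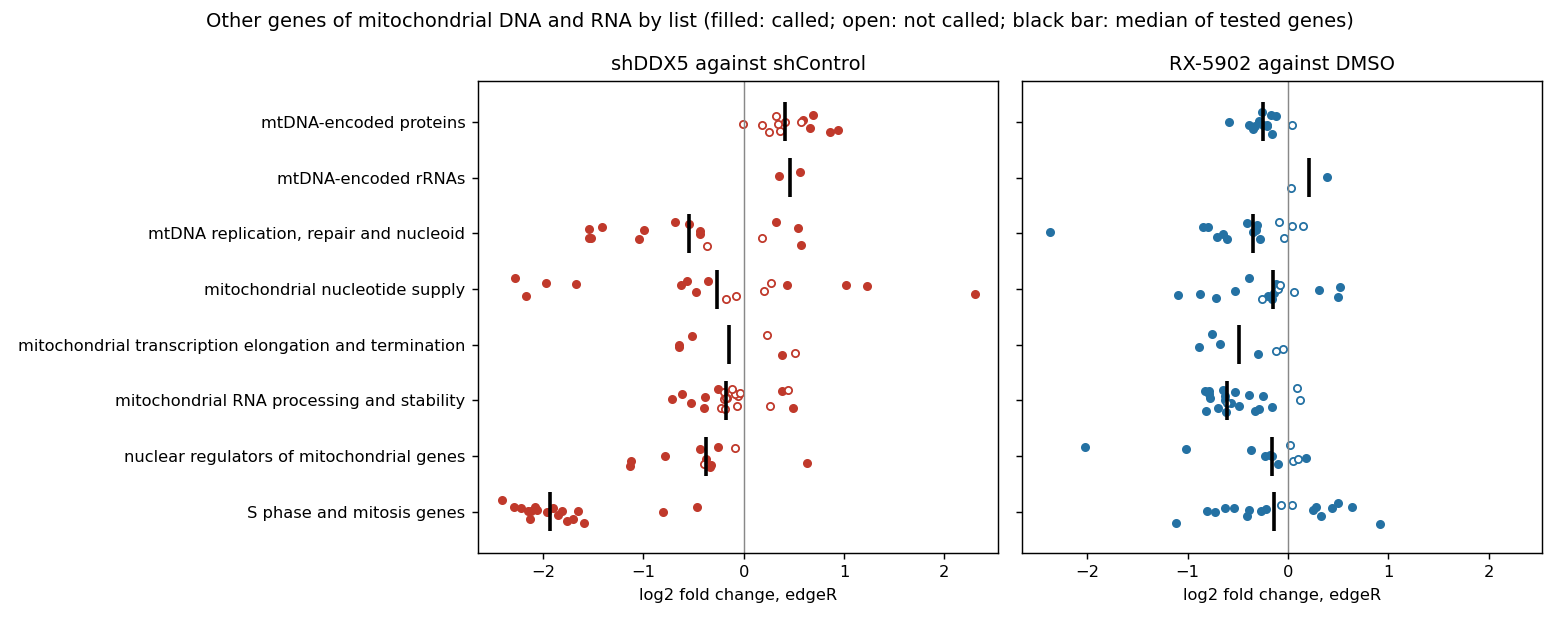
Log2 fold change of every tested gene of each list in the knockdown (left) and with RX-5902 (right), filled where called, with a black bar at the median of the list. The S phase and mitosis genes lie around a median of -1.93 in the knockdown and -0.14 with RX-5902, and the RNA processing genes around -0.18 and -0.60.

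The 5 protein-coding genes whose pattern over the 12 libraries was most like that of TFAM were MAGOHB, MPHOSPH10, UCHL5, ABCE1 and HTATSF1, among 9472 genes compared at a mean of at least 5 CPM. Pearson's r of log2 CPM, less the control mean of each experiment, was 0.997 for MAGOHB, 0.995 for MPHOSPH10, 0.994 for UCHL5 and ABCE1, and 0.992 for HTATSF1. The libraries fall into treated and control groups, so r mostly reflects the group means and is given as a description. MPHOSPH10 had log2 fold changes of -1.28 in the knockdown and -0.75 with RX-5902, close to the -1.30 and -0.73 of TFAM.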

How the data were processed

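RNA was measured in 12 libraries of MOLM-14 cells, 3 in each of 4 groups, with groups and replicate numbers taken from the labels. The authors deposited 1 table per experiment, with raw, unnormalized counts of reads for each gene and library. Trizol and RNeasy columns with DNase gave the RNA, and the MGIEasy Fast RNA kit the libraries, per the labels' protocols. The submitters' processing notes name the build GRCh38.p13 and, with no order, STAR 2.7.9a, Trim Galore 0.6.7, DESeq2 1.46.0, R 4.4.2, Subread 2.0.3, featureCounts and Picard 2.8.0. RNA selection, annotation release, strand setting and the treatment of duplicates and multi-mapping reads are not given in the sources used here, so reads of overlapping genes on opposite strands may have been mixed.

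For 1 gene, the line in each file was split over 3 lines and was rejoined. Symbols were matched by versioned identifier for 59984 genes and without version for 1819, and 103 had none. Gene coordinates run from the first to the last exon base in the tables (GRCh38, counted from 1). Counts were tested with edgeR 4.0.16 in R 4.3.3 (TMM, filterByExpr, quasi-likelihood F test, Benjamini-Hochberg over all genes tested, called under 0.05), per experiment, and over all 12 libraries for the difference between experiments. Standard errors were derived from the F statistic. The sum over mtDNA genes was tested by exact permutation. The script was tested on simulated data. Alternatives were DESeq2 1.42.0, RLE scaling, library totals, no or a stricter filter (1 CPM in 3 libraries), mtDNA genes left out, 1 fit of 12 libraries, a replicate block and each library left out. Promoters came from RefSeq (GRCh38.p14).

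The 10 genes and the lists were chosen with earlier results of these data known. The text names the 10 genes, DDX5, genes whose exons overlap theirs, the mtDNA genes, up to 3 called genes of smallest p per list and experiment, and the 5 genes most like TFAM. TOP1MT, RRM2B, TK2, NRF1, single cell type markers and the S phase and mitosis genes that moved apart were named after their values were seen. The result for 1 gene that this rule names is not reported here.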

Additional observations from a re-analysis of the deposited data

Results flagged for a closer look

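For 6 of the 10 genes the log2 change after DDX5 knockdown differed from that after RX-5902, by edgeR's test of the difference in all 12 libraries (knockdown change minus compound change), while 52.7% of all genes tested differed. The difference was -0.59 for TFAM, -0.86 for MGME1, 0.57 for TFB1M, 0.86 for POLG2, 0.57 for TWNK and 0.55 for SSBP1. For MGME1 and POLG2 the changes had opposite signs and each was called. For TFB1M and SSBP1 the change was called with RX-5902 and not in the knockdown, and for TFAM and TWNK both were falls of different size. The change of the summed mtDNA-encoded protein genes was higher in the knockdown by 0.63 on the log2 scale. The exact permutation test within experiments (two-sided, p = 0.01) is for no change of this sum in either experiment. It cannot tell whether the 2 changes differ. With RX-5902 this sum was lower in all 3 libraries than in DMSO, and in the knockdown the groups overlapped.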

How the results depend on the processing

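With 3 libraries a group the precision is limited, more so in the knockdown, where shDDX5 replicate 1 stood apart. The number of the 10 genes called stayed at 5 to 7 in the knockdown, 9 to 10 with RX-5902 and 6 to 8 for the difference under all alternatives run. The share of all genes called under these ran from 26.2% to 71.4% in the knockdown. It ran from 30.8% to 68.7% with RX-5902 and from 42.2% to 60.4% for the difference. Left-out libraries moved the mtDNA sum between 0.21 and 0.52 in the knockdown and between -0.28 and -0.15 with RX-5902. Of 430 values of single members under alternatives, 407 kept direction and call, 6 lost the call (5 for TFB2M in the knockdown, 1 for POLG with RX-5902), 9 gained it and 8 changed sign, all in the knockdown. Of 1338 values of other genes and lists, 1261 stayed the same. For a gene this means that direction and call were kept. For a list it means only that the number of genes called changed little, with no check of direction.

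The sign changes among the 10 genes were for TFB1M with library totals (-0.0026), for POLG without shDDX5 replicate 1 (0.12, over a leave-one-out range of -0.23 to 0.12), and for SSBP1 with DESeq2 (-0.0017), library totals (-0.096), no filter (-0.0096), the replicate block (-0.017), without shControl replicate 2 (-0.020) and without shDDX5 replicate 1 (-0.18, over a leave-one-out range of -0.18 to 0.098). Among mtDNA genes in the knockdown they were for MT-ATP8 (-0.010, range -0.010 to 0.61) and MT-CO3 (-0.067, range -0.067 to 0.30) without shDDX5 replicate 1, and for MT-ND5 with the stricter filter (0.0031), without shControl replicate 1 (0.046), without shDDX5 replicate 2 (0.00987), without shDDX5 replicate 3 (0.052; lowest value -0.096) and in the fit of 12 libraries (0.0089). With RX-5902 MT-CYB changed sign without DMSO replicate 3 (-0.0743) and without RX-5902 replicate 3 (-0.022), with a highest value of 0.12, and NRF1 without DMSO replicate 3 (-0.0294, highest value 0.152). The cause was not tested, and of the values of the 10 genes above only that of SSBP1 without shDDX5 replicate 1 was called.

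In their deviations from the group means, same-numbered libraries had correlations of -0.03, -0.07 and 0.03 in the knockdown and -0.03, 0.02 and -0.04 in the compound experiment. Differently numbered libraries had -0.02 to 0.07 and -0.02 to 0.05, in the same order. With 3 libraries a group these values cannot tell whether the libraries were made as pairs. With the replicate block 6 of the 10 genes were called in the knockdown, 10 with RX-5902 and 6 for the difference, as without it. Of all genes tested, 52.5%, 62.4% and 49.6% were called with the block, in the same order.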
